A study of Mus musculus with 144 samples.

Results

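The comparison set 36 single cells collected on day 4 after crush of the optic nerve against 54 cells from untreated animals; the series also held 54 cells from day 2, which were not compared here. Cells were taken by their labelled time point. All cells were sorted from retinas of 16-week-old mice of the Iba1-EGFP strain, in which a green fluorescent reporter follows Iba1 (Aif1), a gene of microglia and of other macrophages, so the sort could hold both. The crush injures ganglion cell axons where they leave the eye. Each of 3 plates held 12 day 4 cells and 18 untreated cells. Day 4 cells sat in other plate rows than untreated cells, so plate row and time point cannot be told apart. No label tied a cell to an animal, so cells of 1 time point were handled as 1 sample, no test was made, and every difference below is a description of these cells.

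Microglia are the resident macrophages of the retina. They survey the tissue through receptors such as P2ry12 and, after injury of neurons, can release cytokines and chemokines and take up debris. A higher mean over single cells can come about in different ways: more cells may carry a transcript, or the cells that carry it may hold more of it. The mean over cells does not separate these, and the share of cells with the transcript and the level within them do.

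The labelled cell type was checked on 10 microglia markers, all of them measured. They include Aif1, the gene followed by the reporter used for the sort, which gives no separate check. At least 3 of the 10 were on in 35 of 36 day 4 cells and in 54 of 54 untreated cells, and the median cell had 8 of 10 on at both time points. Their summed level ran from 3124 to 11986 FPKM with a median of 7130 FPKM at day 4, against 625 to 20834 FPKM with a median of 9059 FPKM in untreated cells. At least 3 of 8 border macrophage markers were on in 2 of 36 day 4 cells, against 5 of 54 untreated cells; their summed level had a median of 2.86 FPKM at day 4, against 5.30 FPKM in untreated cells. Without these 7 cells, an alternative chosen after the data were seen, 463 genes met the share rule defined below, against 472 with them. Both sets shared 415 genes. At least 3 of 8 neutrophil markers were on in 1 day 4 cell, against 0 untreated cells, and at least 3 rod markers in 1 day 4 cell, against 2 untreated cells. The 8 monocyte and the 8 lymphocyte markers reached 3 in 0 cells of either group. Cells held 2.33 to 17.5 M reads assigned to genes at day 4 (median 5.80 M), against 0.710 to 13.8 M in untreated cells (median 4.93 M).

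A gene was called on in a cell at 20 or more FPKM (fragments per kilobase of exon, scaled to the reads assigned in the cell). Its level among cells on is the mean log2(FPKM + 1) over the cells above that threshold, given with its SD. Of 8679 measured genes, 472 (5.44%) were on in more day 4 cells, defined as a share at least 30 percentage points higher than in untreated cells and higher in all 3 plates, and 1 gene (0.0115%) was on in fewer. The level could be compared for 1695 genes. They were on in at least 10 cells of each group, with at least 3 cells on in each group in at least 2 plates. Of these, 18 (1.06%) were raised among cells on by at least 1 log2 unit, and 106 (6.25%) were lowered by as much, in every plate with enough cells. By the mean over all cells, 1636 genes (18.9%) were at least 1 log2 unit higher at day 4 and 30 (0.346%) at least 1 lower, with the same sign in all 3 plates. Of the 1636, 454 also met the share rule.

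Of the 18 genes raised among cells on, 7 also met the share rule, as did 309 of the 1695 genes compared in level. The other 11 were raised without a call on share. Among those 309 genes the median level difference was 0.03 log2 units, with 164 of 309 above 0. The difference of means of each gene was split exactly into a part from the share of cells on, a part from the level among cells on and a part from cells under the threshold. For the median gene of the 1636 higher in the mean, which were not chosen on their share, 91.0% of the difference came from the share, -2.85% from the level and 9.47% from cells under the threshold. The level part is weighted by the share of cells on, which keeps it small for genes on in few cells. For the 1636 the median share on was 41.7% at day 4, against 14.8% in untreated cells. For the 472 the share part was 98.6%, which their choice by share favours. The median share on for the 472 was 63.9% at day 4, against 24.1% in untreated cells, and 65 of the 472 were on in fewer than 10% of untreated cells. A further 223 genes were on in more than 70% of untreated cells and could not meet the share rule, which leaves abundant genes to the level rule.

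**Figure D1:**
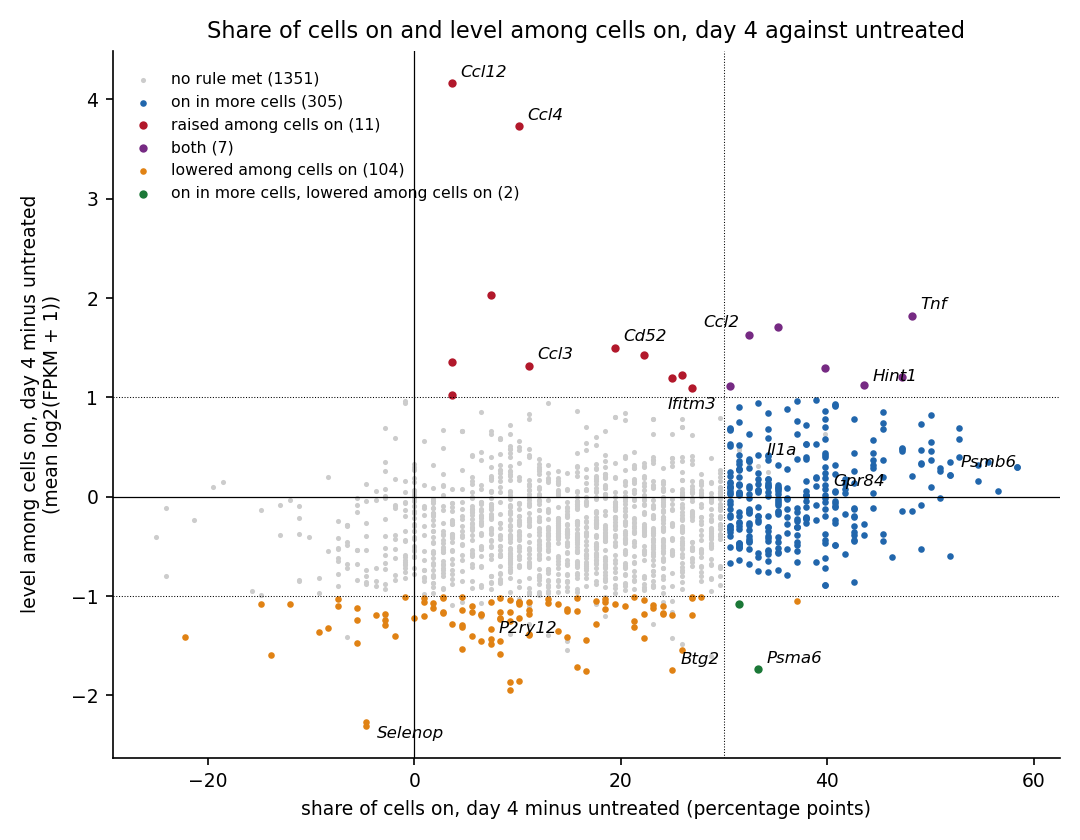
Each point is 1 gene on in at least 10 cells of each group. These include the 1695 genes compared in level and others, such as Cxcl16, with too few cells on per plate for the level rule. The x axis gives the share of cells on, day 4 minus untreated, in percentage points, and the y axis the level among cells on, day 4 minus untreated, in log2 units; dotted lines mark the 30-point and 1-unit limits. Most points lie right of 0 and below 0, and the few genes raised among cells on include Ccl12 and Ccl4 near the top and Tnf at the upper right. The minimum of 10 cells is a larger share of day 4 cells than of untreated cells, which favours points right of 0.

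Day 4 cells held more detected genes than untreated cells, and this moved with the share rule. The number of genes at 1 or more FPKM ran from 1071 to 7872 with a median of 3957.5 in day 4 cells, against 1136 to 5597 with a median of 2792 in untreated cells. In plates 1, 2 and 3 the medians were 3563, 5057.5 and 3596.5 at day 4, against 2442, 3166 and 3219.5 in untreated cells. Within 1 plate alone, the share was at least 30 points higher for 563, 1586 and 558 genes, so plate 2 weighed most. Over all measured genes the median share on was 3.70 points higher at day 4, and the median of the mean differences was 0.45 log2 units (0.31, 0.70 and 0.32 in plates 1, 2 and 3). Over the 1695 genes compared in level, the median level difference was -0.28 log2 units, below 0 for 72.0% of them, while the share was higher at day 4 for 90.6%. The minimum of 10 cells on is a larger share of 36 day 4 cells than of 54 untreated cells. It therefore favours genes with a higher share at day 4. Over all 8679 measured genes the share was higher at day 4 for 64.4%. A typical gene of the 1695 was on in more day 4 cells at a lower level among cells on. With the number of detected genes per cell as a covariate, a setting chosen after the data were seen, 82 genes kept a share difference of 30 points in place of 472, and 81 of them were among the 472. With each level difference taken relative to the median gene, also chosen afterwards, 48 genes were raised and 35 lowered among cells on, in place of 18 and 106. The part of the detected gene number in the single results was not tested.

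**Figure D2:**
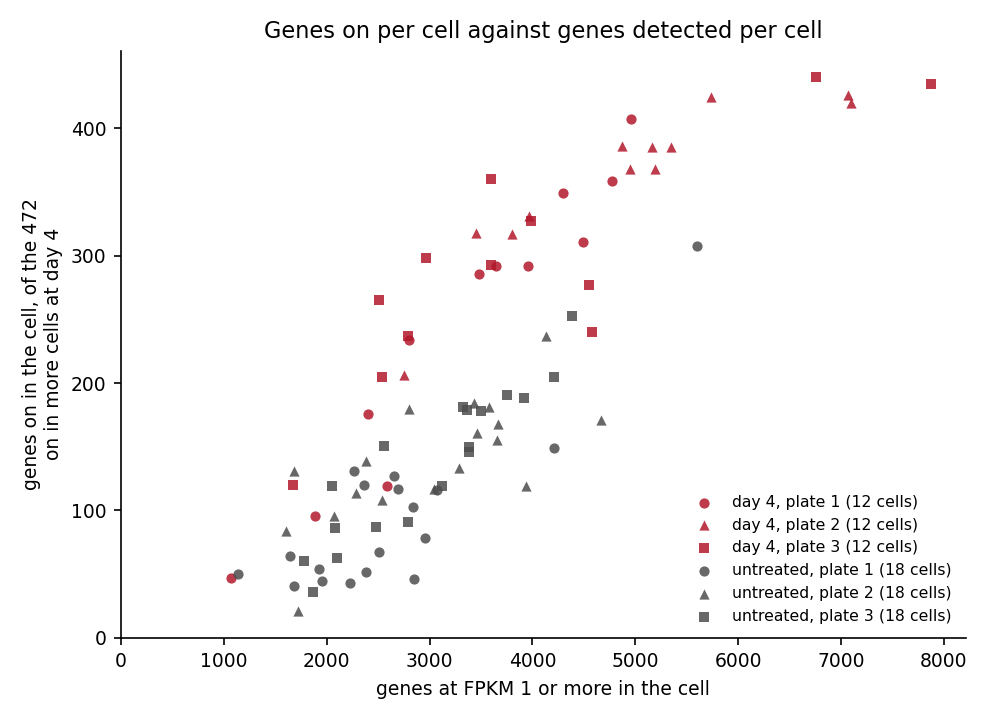
Each point is 1 cell; the x axis gives the genes at 1 or more FPKM and the y axis how many of the 472 genes on in more day 4 cells were on in that cell. Colours mark the time point and shapes the plate. Cells with more detected genes had more of the 472 on at both time points, and the median was 314 in day 4 cells, against 119 in untreated cells; the 472 were chosen on these cells.

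Tnf, Gpr84 and Il1a, the 3 genes of the study's title, were each on in a higher share of day 4 cells, of which Tnf and Gpr84 met the share rule and Tnf alone also met the level rule. Tnf (chr17:35199381-35202007, minus strand; all coordinates are of GRCm38.p6) encodes a secreted inflammatory cytokine. Its lowest, median and highest values were 0.262, 415 and 4297 FPKM in day 4 cells, against 0, 2.58 and 704 FPKM in untreated cells. The groups overlapped over most of their range, but the typical day 4 cell was on and the typical untreated cell was off. Tnf was on in 24 of 36 day 4 cells (66.7%, exact 95% interval 49% to 81.4%), against 10 of 54 untreated cells (18.5%, 9.25% to 31.4%); these intervals cover counting error only. By plate, 7, 11 and 6 of 12 day 4 cells were on, against 3, 1 and 6 of 18 untreated cells. Among cells on, the Tnf level was 9.11 ± 1.40 at day 4 (SD, 24 cells), against 7.29 ± 1.25 in untreated cells (SD, 10 cells). That level difference of 1.82 log2 units was 3.35 in plate 1 and 1.46 in plate 3, and plate 2 had too few untreated cells on. The share accounted for 81.7% of the difference of means of 3.87 log2 units, and the level for 20.1%. Without plate 2, the share difference for Tnf was 29.2 points in place of 48.1, and with detected genes as a covariate it was 29.4 points, both just under the 30-point limit. The level call rested on the fewest untreated cells the rule allows: without plates 1, 2 or 3 in turn, or without the cells carrying border macrophage markers, 4 to 9 untreated cells were on and the rule could not be applied. The level difference of Tnf was 1.19 without plate 1, 2.24 without plate 2, 2.52 without plate 3 and 1.76 without those cells.

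Gpr84 (chr15:103308235-103310612, minus strand), a receptor for medium-chain fatty acids, differed mainly in its share of cells. It ranged from 0.878 to 3240 FPKM with a median of 194 FPKM in day 4 cells, against 0.268 to 1152 FPKM with a median of 4.32 FPKM in untreated cells. It was on in 25 of 36 day 4 cells (69.4%, exact 95% interval 51.9% to 83.7%), against 16 of 54 untreated cells (29.6%, 18% to 43.6%). The median over cells on was 315 FPKM at day 4, against 300 FPKM in untreated cells, and 97.1% of the difference of means came from the share. Its level difference was 0.29 log2 units, and 1.21, -0.02 and 0.20 in plates 1, 2 and 3. The share difference was 33.3 points in plate 1, 77.8 in plate 2 and 8.33 in plate 3, where 7 of 12 day 4 cells and 9 of 18 untreated cells were on. Leaving out plate 2 gave 20.8 points and adding detected genes as a covariate gave 15.9 points, under the limit in both. Of the Gpr84 values above 0, 60.4% were not whole numbers of reads, and its exons overlap those of Gm49482.

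Il1a (chr2:129299610-129309972, minus strand), a cytokine of the interleukin-1 family, ran from 2.29 to 3529 FPKM with a median of 340 FPKM in day 4 cells, against 0.979 to 1366 FPKM with a median of 9.87 FPKM in untreated cells. It was on in 26 of 36 day 4 cells, against 21 of 54 untreated cells, a difference of 33.3 points. It did not meet the share rule, because plate 3 went the other way with 6 of 12 day 4 cells and 10 of 18 untreated cells on. Among cells on, the median was 614 FPKM at day 4, against 739 FPKM in untreated cells. Of the Il1a difference of means, 89.9% came from the share. Of the Il1a values above 0, 53.5% were not whole reads, and its exons overlap those of Gm14023.

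The 3 title genes were often on in the same cell. All 3 were on in 21 of 36 day 4 cells, against 6 of 54 untreated cells, and none was on in 6 day 4 cells, against 28 untreated cells. By plate, all 3 were on in 6, 11 and 4 of 12 day 4 cells, against 1, 0 and 5 of 18 untreated cells in plates 1, 2 and 3. Of the 24 day 4 cells with Tnf on, 21 also had Gpr84 on and 22 had Il1a on, against 6 and 9 of the 10 untreated cells with Tnf on. Conversely, 10 of 16 untreated cells with Gpr84 on and 12 of 21 with Il1a on had no Tnf call, against 4 of 25 and 4 of 26 day 4 cells. The median cell had 1960.5 measured genes on at day 4, against 1203 in untreated cells, and the joint counts were not adjusted for that.

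**Figure D3:**
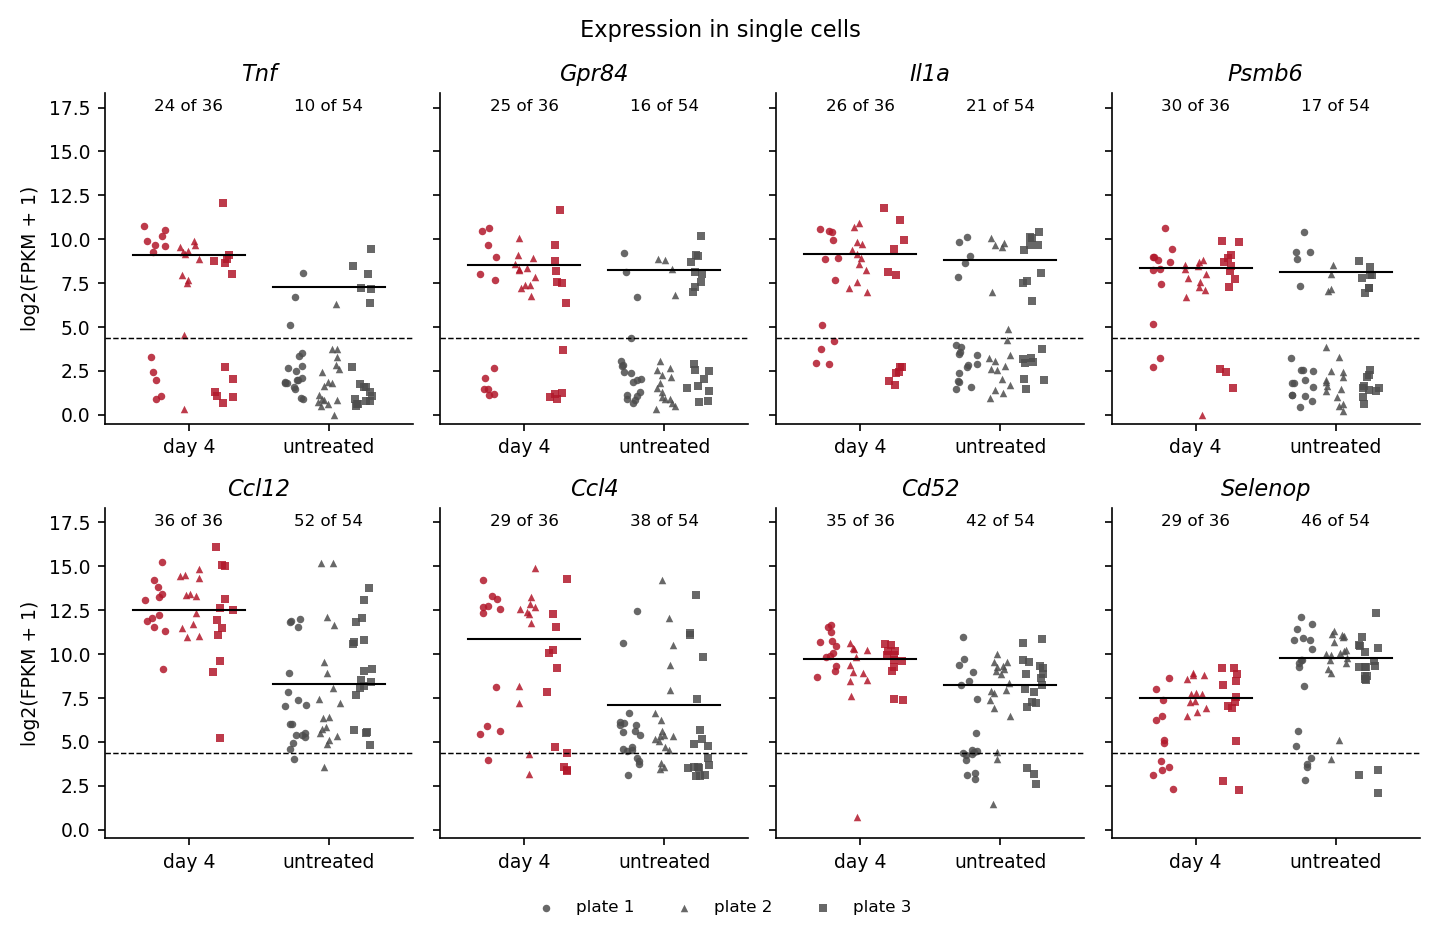
Each point is 1 cell, with log2(FPKM + 1) on the y axis, day 4 at the left and untreated at the right of each panel; shapes and small shifts mark the plates. The dashed line is the 20 FPKM threshold, the bar is the mean over cells on, and the numbers count cells on. Tnf, Gpr84, Il1a and Psmb6 fall into an upper and a lower group of cells whose sizes differ, whereas the cells on for Ccl12 and Ccl4 lie higher at day 4 and those for Selenop lie lower. For Ccl4, 24 of 54 untreated cells lie from 10 to 40 FPKM, around the dashed line, so its cells on include low ones.

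The CC chemokines, secreted attractants of monocytes and other leukocytes, fell into 2 patterns by these rules: Ccl12, Ccl4 and Ccl3 met the level rule and not the share rule, and Ccl2, like Gpr84, drew most of its difference of means from the share (71.7%). For Ccl4 and Ccl3 the 20 FPKM threshold fell among low values. From 10 to 40 FPKM lay 24 and 19 of 54 untreated cells, against 4 for Tnf, and 5 and 7 of 36 day 4 cells, against 1 for Tnf. Their cells on thus held low as well as high values, and the level could also move with the number of high cells. This limit was not confined to these genes. Ccl12, Ifitm3 and Cd52 had 9, 21 and 10 untreated cells from 10 to 40 FPKM, against 1, 4 and 0 day 4 cells. Ccl12 (chr11:82101845-82103400, plus strand), a mouse ligand of the receptor Ccr2, was on in almost every cell: 36 of 36 at day 4, against 52 of 54 untreated cells. Its lowest, median and highest values were 36.2, 5990 and 71540 FPKM in day 4 cells, against 11.1, 188 and 38085 FPKM in untreated cells. Above 1000 FPKM stood 32 of 36 day 4 cells, against 15 of 54 untreated cells. The level among cells on was 12.49 ± 2.12 at day 4 (SD, 36 cells), against 8.32 ± 2.93 in untreated cells (SD, 52 cells). This difference of 4.17 log2 units was the largest level difference of the 18 raised genes, and it was 5.02, 4.71 and 2.81 in plates 1, 2 and 3. The level accounted for 94.4% of the Ccl12 difference of means.

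Ccl4 (chr11:83662584-83664683, plus strand), an attractant of leukocytes, ran from 8.13 to 30151 FPKM with a median of 2129 FPKM in day 4 cells, against 7.36 to 19351 FPKM with a median of 37.1 FPKM in untreated cells. It was on in 29 of 36 day 4 cells, against 38 of 54 untreated cells. The level among cells on was 10.84 ± 2.96 at day 4 (SD, 29 cells), against 7.12 ± 2.85 in untreated cells (SD, 38 cells), a difference of 3.73 log2 units that was 4.21, 4.60 and 1.87 in plates 1, 2 and 3. Ccl3 (chr11:83647844-83649355, minus strand), another CC chemokine, was on in 28 day 4 cells, against 36 untreated cells. Its level difference was 1.32 log2 units, and its median was 833 FPKM in day 4 cells, against 47 FPKM in untreated cells. Ccl2 (chr11:82035571-82037453, plus strand), a ligand of Ccr2, met both rules, with 19 day 4 cells on, against 11 untreated cells, and a level difference of 1.62 log2 units that was 3.91, 0.01 and 2.02 in the 3 plates. Plate 2 alone held 11 of the 19 day 4 cells with Ccl2 on; without plate 2 the share difference was 13.9 points in place of 32.4. With the level rule's minimum of 10 cells, the Ccl2 level call was lost without any 1 plate, and its level difference was then 0.82, 2.83 and 1.55 without plates 1, 2 and 3.

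Many low chemokine values of untreated cells stood beside a very high value in the same plate column. Low values above 0 were more frequent in the column of a high cell: for 90 genes with at least 95% of all reads in 1 cell, 47% of the other wells in that cell's column were above 0, against 21.3% in its row, 13.7% elsewhere on the plate and 4.14% on other plates. The 95th percentile was 0.226% of the value of that cell in its column and 0.220% in its row, against 0.108% elsewhere on the plate. Columns held both time points, so a day 4 cell with high Ccl12 shared its column with untreated cells. Of the untreated cells on, 25 of 52 for Ccl12, 23 of 38 for Ccl4 and 10 of 36 for Ccl3 stood under 1% of the highest value in their column, against 1 of 36, 3 of 29 and 4 of 28 of the day 4 cells on. The same held for 0 cells of either group for Tnf, Gpr84 and Il1a. With all such values set to 0, Ccl12 was on in 35 of 36 day 4 cells, against 27 of 54 untreated cells, with a level difference of 2.31 log2 units. Ccl4 was then on in 26 of 36 day 4 cells, against 15 of 54 untreated cells, with a level difference of 1.65, so that both met the share rule as well as the level rule. Ccl3 then had a level difference of 0.73 and met neither rule, and Ccl2 lost its level call at 1.38. The level call of Ccl2 also ended without any 1 of the 3 plates, and its share difference was 13.9 points without plate 2, which ended that call. The higher Ccl12 and Ccl4 level among cells on at day 4 was therefore seen with and without these values, while the number of untreated cells on was not. Whether the low untreated values came from other wells was not tested.

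Of 29 listed cytokines and chemokines, 19 were measured. On in more cells were 3 of the 19 (Tnf, Ccl2 and Cxcl16). This is 15.8%, beside 5.44% of all measured genes and 309 of the 1695 genes compared in level. Of the 9 with enough cells, 5 were raised among cells on (Ccl12, Ccl4, Ccl3, Ccl2 and Tnf), beside 1.06% of the 1695. With values under 1% of the column's highest set to 0, 5 were on in more cells and 3 were raised (Ccl12, Ccl4 and Tnf). With detected genes as a covariate 1 of the 19 kept 30 points, beside 82 of the 8679 measured genes. The median cell had 8.5 of the 19 on at day 4, against 5 in untreated cells. Cxcl16, a membrane-bound chemokine, was on in 24 day 4 cells, against 10 untreated cells, at a level that differed by -0.14 log2 units. Cxcl10, a chemokine known as an interferon target, was on in 11 day 4 cells, against 2 untreated cells, with a difference of means of 1.75. Il1b, the other main interleukin-1 agonist, was on in 4 day 4 cells, against 1 untreated cell. None of the 15 measured NF-kB subunits and feedback genes met the share or mean rule. The median of their mean differences was 0.77, 1.09 and -0.29 log2 units in plates 1, 2 and 3. Nfkbia, an inhibitor of NF-kB and one of its targets, was on in 30 of 36 day 4 cells, against 31 of 54 untreated cells (25.9 points). Its levels were 9.24 in day 4 cells and 9.46 in untreated cells. The Nfkbia mean was 1.42 log2 units higher at day 4, but differed by -0.64 in plate 3, against 2.45 and 2.46 in plates 1 and 2. Of Ccl2, Ccl3, Ccl4, Ccl12 and Tnf, all 5 were on in 15 of 36 day 4 cells, against 2 of 54 untreated cells. By plate these were 4, 9 and 2 of 12 day 4 cells, against 1, 0 and 1 of 18 untreated cells in plates 1, 2 and 3.

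Among genes with mostly whole reads, Cd52, Hint1 and Ifitm3 were raised among cells on besides Tnf and the 4 chemokines. Cd52, a small surface glycoprotein of leukocytes, ran from 0.619 to 3188 FPKM with a median of 946 FPKM in day 4 cells, against 1.72 to 1992 FPKM with a median of 242 FPKM in untreated cells. It was on in 35 of 36 day 4 cells, against 42 of 54 untreated cells, and its level among cells on was 9.72 ± 1.06 at day 4 (SD, 35 cells), against 8.22 ± 1.68 in untreated cells (SD, 42 cells). The difference was 2.81, 1.13 and 0.73 in the 3 plates, and 0.94 without plate 1. From 10 to 40 FPKM lay 10 untreated cells for Cd52, against 0 day 4 cells. The exons of Cd52 overlap those of Crybg2. Hint1, a nucleotide-binding protein of the histidine triad family, met both rules with 29 day 4 cells on, against 20 untreated cells, and a level difference of 1.12, which was 0.97 with on at 10 FPKM, 0.45 at 50 FPKM and 0.89 over cells with at least 2 M reads, all short of the level rule. Its share difference was 28.7 points with on at 5 FPKM and 26.8 points with the covariate, short of the share rule. For 10 of the 18 raised genes more than 50% of values above 0 were not whole reads, so reads shared with near-identical copies could be part of their values and they are uncertain: Ctsz, Actb, Gapdh, Pkm, Eif5a, Tuba1b, Bcl2a1d, Gm20390, Rpl38 and Ifi27l2a. Ctsz, a lysosomal cathepsin, was on in 36 day 4 cells, against 52 untreated cells, with medians of 2895 FPKM at day 4 and 1426 FPKM in untreated cells. Its level difference was 1.36, and 0.88 without plate 1.

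**Figure D4:**
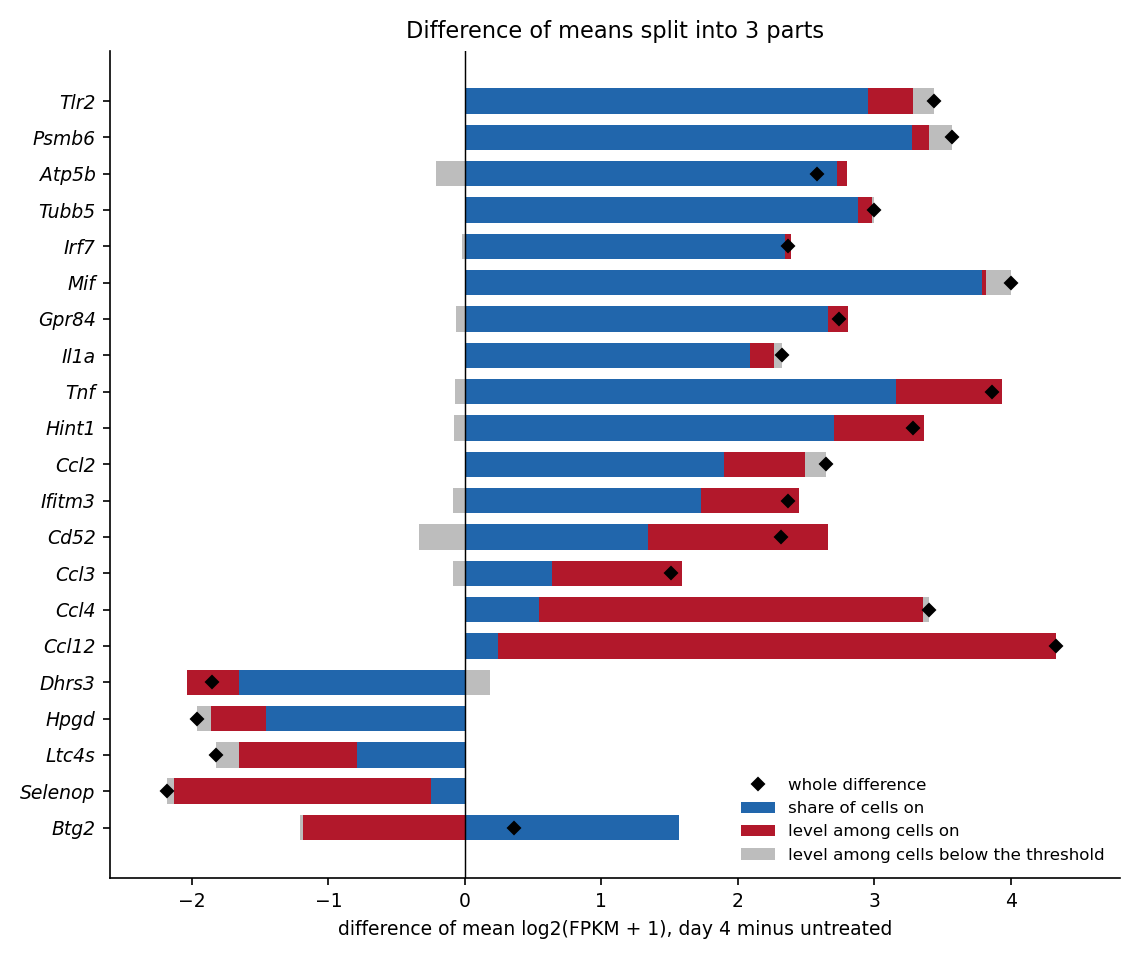
Each bar splits the difference of mean log2(FPKM + 1), day 4 minus untreated, of 1 gene into the part from the share of cells on, the part from the level among cells on and the part from cells under 20 FPKM; the diamond is the whole difference. The share makes up most of the bar from Tlr2 to Ifitm3, the level most of it for Ccl12, Ccl4 and Selenop, and for Btg2 these parts have opposite signs.

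Among genes with no level call and at most 50% of values that were not whole reads, and leaving out ribosomal, mitochondrial and provisional gene names, the 10 largest share differences were those of Atp5mpl, Psmb6, Tubb5, Bola2, Ddx39, Atp5b, Tlr2, Tagln2, Timm13 and Txn1. Tlr2, a receptor for bacterial lipoproteins, was on in 25 of 36 day 4 cells (69.4%), against 11 of 54 untreated cells (20.4%). Its lowest, median and highest values were 0.393, 163 and 1118 FPKM at day 4, against 0, 2.24 and 661 FPKM in untreated cells, and its plates differed by 47.2, 77.8 and 22.2 points. Ddx39, an RNA helicase of mRNA export, was on in 19 day 4 cells (6, 7 and 6 by plate), against 1 untreated cell. Bola2, a factor in iron-sulfur protein assembly, was on in 21 day 4 cells, against 4 untreated cells, and Tagln2, an actin-binding protein, in 21 day 4 cells, against 5 untreated cells. Tubb5, a beta-tubulin, was on in 26 day 4 cells and Txn1, the cytosolic thioredoxin, in 25, against 11 untreated cells for each. The other genes of this set were Psmb6, Atp5b, Atp5mpl and Timm13, with 25 to 34 day 4 cells on, against 9 to 24 untreated cells. In these 10 genes the level among cells on differed by -0.35 to 0.73 log2 units, with as few as 1 untreated cell on for Ddx39. Of the 10, all but Txn1 kept a difference of 30 points with detected genes as a covariate. Ddx39 overlaps the exons of Adgre5, Bola2 those of Coro1a and Slx1b, and Timm13 those of Tmprss9.

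The proteasome, the protease complex that degrades ubiquitinated proteins, differed mainly in the share of cells with its transcripts. Of its 39 subunits and activators, all measured, 25 were on in more day 4 cells (64.1%, against 5.44% of all measured genes), 0 were raised among cells on and 2 were lowered (Psma6 and Psmd12). The 5.44% also counts genes on in few cells, and 309 of the 1695 genes compared in level met the share rule. This and the other lists were drawn up with earlier results of these data known, which can favour their shares. The median cell had 20 of the 39 on at day 4 (range 3 to 36), against 8.5 in untreated cells (range 0 to 28). Psmb6, a catalytic beta subunit, was on in 30 day 4 cells, against 17 untreated cells, with medians of 309 FPKM at day 4 and 3.60 FPKM in untreated cells. Over cells on, its median was 349 FPKM at day 4, against 252 FPKM in untreated cells. Psmc1, an ATPase of the regulatory particle, was on in 21 day 4 cells, against 9 untreated cells. Psma6, a subunit of the outer ring, was on in 20 day 4 cells, against 12 untreated cells, but its level among cells on was 1.73 log2 units lower at day 4, and with on at 5 FPKM neither call was met (27.8 points, level difference -0.48); Tmem30a was the other gene on in more cells at a lowered level. With detected genes as a covariate, 3 of the 39 kept a difference of 30 points (Psma5, Psmb3 and Psmb6), beside 82 of the 8679 measured genes.

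Nuclear genes of the respiratory chain, the mitochondrial complexes that make ATP, gave 26 of 58 members on in more day 4 cells (44.8%) and 0 raised among cells on. For this and the lists that follow, 5.44% of all measured genes and 309 of the 1695 genes compared in level met the share rule. Of the 1695, 1.06% were raised among cells on. The median cell had 38 of the 58 on at day 4, against 19.5 in untreated cells. Atp5b, the catalytic beta subunit of ATP synthase, was on in 34 of 36 day 4 cells, against 24 of 54 untreated cells, at levels among cells on of 7.41 ± 1.30 at day 4 (SD, 34 cells) and 7.31 ± 1.21 in untreated cells (SD, 24 cells). Cox7b, a subunit of cytochrome oxidase, was on in 21 day 4 cells, against 10 untreated cells. The CCT chaperonin, a ring that folds actin and tubulin, had 7 of 8 subunits on in more cells: Cct5 was on in 26 day 4 cells, against 15 untreated cells, and Cct8 in 23 day 4 cells, against 10 untreated cells. Glycolytic enzymes and transporters had 7 of 15 members on in more cells and 2 raised among cells on (Gapdh and Pkm), though 8 of the 15 had mostly values that were not whole reads. Heat shock and ER chaperones had 7 of 20 on in more cells, among them Sdf2l1, a chaperone cofactor of the ER, on in 26 day 4 cells, against 15 untreated cells. With detected genes as a covariate, the genes that kept 30 points numbered 6 for the respiratory chain, 1 for CCT, 0 for glycolysis and 1 for chaperones. Among all 8679 measured genes they numbered 82. Atp5b missed the limit with on at 5 FPKM (29.6 points).

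The lists for protein and RNA synthesis followed with smaller shares. Ribosome biogenesis had 7 of 21 members on in more cells (33.3%), translation factors 7 of 23 (30.4%) and the Ran cycle of nuclear transport 3 of 12 (25%). These stand beside 5.44% of all measured genes and 309 of the 1695 genes compared in level. Nme1, a nucleoside diphosphate kinase placed in the first of these lists, was on in 30 of 36 day 4 cells, against 9 of 54 untreated cells, at medians of 99.4 FPKM at day 4 and 0.578 FPKM in untreated cells; its exons overlap Gm20390 and 66.2% of its values were not whole reads. Srm, spermidine synthase, was on in 17 day 4 cells, against 6 untreated cells, with a median over cells on of 112 FPKM at day 4, against 376 FPKM in untreated cells. Ran, Ranbp1 and Nutf2, the 3 called genes of the Ran list, were on in 28 to 30 day 4 cells, against 14 to 18 untreated cells, and each kept 30 points or more with detected genes as a covariate. Of their values, 74.3%, 76.2% and 93.8% were not whole reads, so all 3 are uncertain. Mif, a cytokine and tautomerase, was on in 29 day 4 cells, against 13 untreated cells, at levels of 8.62 in day 4 cells and 8.56 in untreated cells, and kept its call under the covariate as well.

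**Figure D5:**
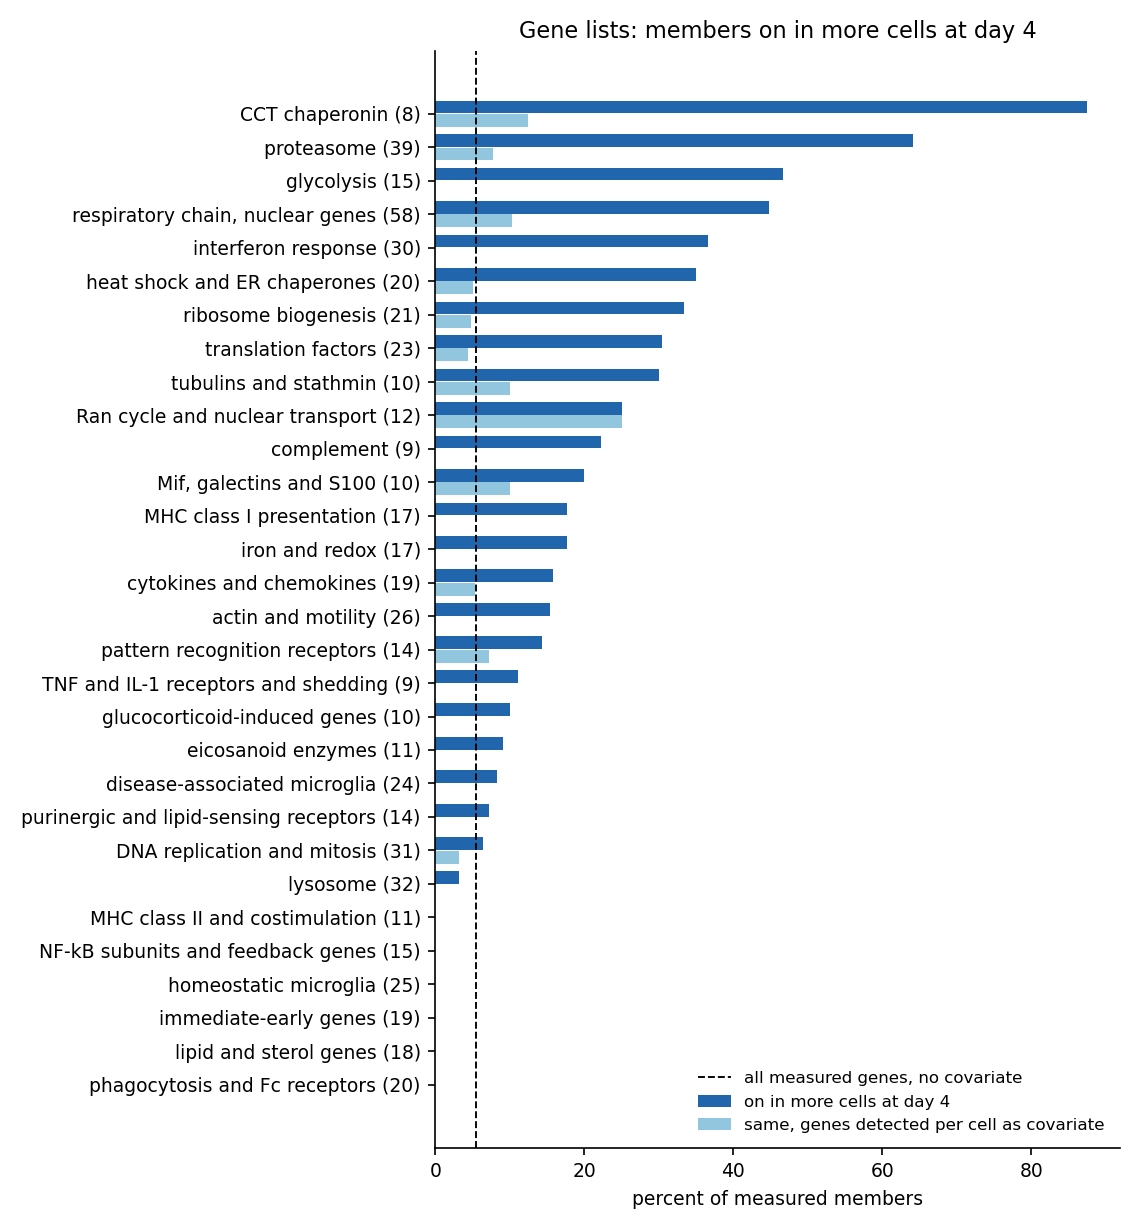
Bars give the percent of measured members of each list, with their number in brackets, that were on in more day 4 cells, without and with the number of detected genes per cell as a covariate. The dashed line is the share among all measured genes without the covariate, 5.44%, which also counts genes on in few cells. The lists were drawn up with earlier results of these data known. Without the covariate CCT chaperonin and proteasome genes reach furthest and 6 lists have 0 members on in more cells; with it the Ran list reaches furthest, with 3 of 12.

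Interferon response genes, which are induced through the transcription factors of the type I interferon pathway and include antiviral effectors, had 11 of 30 measured members on in more day 4 cells (36.7%) and 2 raised among cells on (Ifitm3 and Ifi27l2a). The share rule was met by 5.44% of all measured genes and by 309 of the 1695 genes compared in level. Of the 1695, 1.06% were raised among cells on. The median cell had 9 of the 30 on at day 4 (range 0 to 26), against 3 in untreated cells (range 0 to 19). Irf7, a transcription factor that amplifies interferon production, was on in 14 day 4 cells, against 1 untreated cell, and its median was under 1 FPKM at both time points. Bst2, a membrane protein that tethers budding viruses, ran from 1.24 to 1869 FPKM with a median of 266 FPKM at day 4, against 0.114 to 2471 FPKM with a median of 6.67 FPKM in untreated cells. It was on in 27 day 4 cells, against 20 untreated cells, at levels of 8.61 in day 4 cells and 8.60 in untreated cells, though the level difference by plate was 1.73, -0.61 and -0.08. Ifitm3, a membrane protein that blocks virus entry, was on in 29 day 4 cells, against 27 untreated cells. Its median was 391 FPKM at day 4, against 26.6 FPKM in untreated cells, and its level among cells on was 9.50 ± 2.20 at day 4 (SD, 29 cells), against 8.39 ± 2.57 in untreated cells (SD, 27 cells). From 10 to 40 FPKM lay 21 untreated cells, against 4 day 4 cells, so its cells on also held low values. Its level rule was not met without plate 1 (1.0 log2 units, just below the limit), without plate 3 (0.87) or with values under 1% of the column maximum set to 0 (0.85), and its share difference was 22.2 points without plate 2 and 25 points without plate 3. Of the 30 genes, 0 kept 30 points once detected genes entered as a covariate, and the median share difference of the list was 13.1 points.

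Promoters of these genes are shown because the list is defined by a shared regulatory route. They run from 250 bases before to 50 bases after the start of the gene (RefSeq, GRCm38.p6). Capitals mark matches to the interferon-stimulated response element, searched on both strands as GAAA, any 2 bases, GAAA, and to the kB motif.
Ifitm3, chr7:141010695-141010994, minus strand: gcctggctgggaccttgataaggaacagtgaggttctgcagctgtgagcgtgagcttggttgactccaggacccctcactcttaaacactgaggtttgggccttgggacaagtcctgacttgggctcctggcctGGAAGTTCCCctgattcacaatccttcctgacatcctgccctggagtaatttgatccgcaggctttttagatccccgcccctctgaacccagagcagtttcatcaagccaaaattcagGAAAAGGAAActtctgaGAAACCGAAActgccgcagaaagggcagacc
Bst2, chr8:71537423-71537722, minus strand: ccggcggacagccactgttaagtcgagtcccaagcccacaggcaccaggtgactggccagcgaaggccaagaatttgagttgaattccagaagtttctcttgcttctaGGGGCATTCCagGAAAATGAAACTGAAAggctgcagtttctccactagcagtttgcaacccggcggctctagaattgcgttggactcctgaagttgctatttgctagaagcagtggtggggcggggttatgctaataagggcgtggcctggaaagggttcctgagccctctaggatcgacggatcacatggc
Phf11b, chr14:59341281-59341580, minus strand: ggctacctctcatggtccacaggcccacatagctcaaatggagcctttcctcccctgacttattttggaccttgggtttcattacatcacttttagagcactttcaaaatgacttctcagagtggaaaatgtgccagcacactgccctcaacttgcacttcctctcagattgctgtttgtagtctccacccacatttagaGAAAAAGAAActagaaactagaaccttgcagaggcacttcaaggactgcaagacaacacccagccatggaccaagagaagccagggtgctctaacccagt
Ifitm3 and Bst2 each held 2 matches of the response element and 1 kB match, and in Bst2 the 2 response element matches overlapped. Phf11b, an interferon-induced gene on in 21 day 4 cells, against 11 untreated cells, held 1; 79.4% of its values were not whole reads. Over the list, 14 of 25 promoters held a match (56.0%), against 3.44% of all 32851 promoters in the table and 5.04% of 357 promoters of genes on in more cells. The kB motif was found in 4 of 13 promoters of the cytokine list, against 8.46% of all promoters and 10.7% of 6654 promoters of measured genes. Of the promoters of genes raised among cells on, 2 of 17 held it (11.8%). Irf7, Tnf and Ccl12 held neither motif in this window. A match of letters is a description and not a site of binding.

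Of 31 measured DNA replication and mitosis genes, 17 were higher in the mean, beside 18.9% of all measured genes. The share rule was met by 2 of the 31 (6.45%), close to the 5.44% of all measured genes: the helicase subunits Mcm3 (18 day 4 cells, against 5 untreated cells) and Mcm6 (16 day 4 cells, against 4 untreated cells). Mcm2, of the same ring, was on in 12 day 4 cells, against 2 untreated cells, 29.6 points and just short of the rule. The median cell had 7 of the 31 on at day 4, against 1 in untreated cells. Stmn1, a regulator of microtubule growth, was on in 18 day 4 cells, against 5 untreated cells. Of 10 tubulins and stathmin, Stmn1, Tuba1c and Tubb5 were on in more cells and Tuba1b was raised among cells on. Tuba1b and Tuba1c, near-identical alpha-tubulins, could share reads, since 98.6% of the values of each were not whole. Tuba1b was on in 33 day 4 cells, against 36 untreated cells, and Tuba1c in 32 day 4 cells, against 31 untreated cells.

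Lists of microglial surface and clearance functions ranged from 0 to 22.2% of members on in more cells, beside 5.44% of all measured genes. Of 14 measured pattern recognition receptors, Tlr2 and Clec7a, a receptor for fungal glucans, were on in more cells; Clec7a was on in 25 day 4 cells, against 18 untreated cells. Of 24 disease-associated microglia genes, Clec7a and Cst7 were on in more cells. Cst7, an inhibitor of lysosomal cathepsins, was on in 12 of 36 day 4 cells (4, 5 and 3 by plate), against 0 of 54 untreated cells, which allows a share of up to 5.56%. Its highest untreated value was 10.4 FPKM and its median over day 4 cells on was 336 FPKM. Lpl, a lipoprotein lipase, was on in 12 day 4 cells, against 2 untreated cells, a difference of 29.6 points. Of 9 complement genes 2 were called (22.2%). C5ar1, the receptor for complement fragment C5a, and Itgam, a subunit of complement receptor 3, were on in 27 and 24 day 4 cells, against 23 and 19 untreated cells, though 59.7% of Itgam values were not whole reads. Among the 20 phagocytosis and Fc receptor genes, 18 lipid and sterol genes, 11 class II genes and 25 homeostatic genes measured, 0 met the share rule. Apoe, a lipid carrier, was on in 29 day 4 cells, against 47 untreated cells, and its level difference was -3.54, -2.26 and 1.14 in plates 1, 2 and 3, without 1 direction.

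The remaining lists held 1 to 4 genes that met the share rule, beside 5.44% of all measured genes and 309 of the 1695 genes compared in level. Of 26 actin and motility genes, 4 were on in more cells (Capg, Coro1a, Myl12a and Rac2). Capg, which caps actin filaments, was on in 26 day 4 cells, against 16 untreated cells, with medians of 145 FPKM at day 4 and 2.16 FPKM in untreated cells. Of 17 iron and redox genes, 3 were called, the peroxiredoxins Prdx1 and Prdx5 and Txn1. Of 17 class I presentation genes, 3 were called, all of them proteasome parts: Psmb10, an immunoproteasome subunit on in 20 day 4 cells, against 13 untreated cells, and the activator subunits Psme1 and Psme2. Of 10 genes in the list of Mif, galectins and S100 proteins, Mif and Lgals3bp were called. A single gene each was called among 9 TNF and IL-1 receptor genes (Pycard, an inflammasome adaptor), 32 lysosomal genes (Gusb, a glucuronidase), 10 glucocorticoid-induced genes (Mt1, a metallothionein), 11 eicosanoid enzymes (Ptges3) and 14 purinergic and lipid-sensing receptors (Gpr84). With 1 call each, 3.1% to 11.1% of members, these lists do not stand apart from the 5.44% of all measured genes. Mt1 was on in 23 day 4 cells, against 16 untreated cells, and its share differences of 36.1, 36.1 and 30.6 points were alike in the 3 plates. With detected genes as a covariate, Mif alone among the genes of these lists kept 30 points.

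By these rules 106 genes were lowered among cells on at day 4 and 1 was on in fewer cells. With levels centred on the median gene the first count was 35. Different cells were compared, so no fall within a cell was measured. Of the 106 genes lowered among cells on, 86 were on in a higher share of day 4 cells and 57 had a higher mean. Selenop (chr15:3268547-3280508, plus strand), a secreted selenium carrier, was among the most lowered: it was on in 29 of 36 day 4 cells, against 46 of 54 untreated cells. Its lowest, median and highest values were 3.86, 153 and 598 FPKM in day 4 cells, against 3.22, 806 and 5284 FPKM in untreated cells, and 0 day 4 cells, against 24 untreated cells, exceeded 1000 FPKM. Its level among cells on was 7.51 ± 1.21 at day 4 (SD, 29 cells), against 9.78 ± 1.56 in untreated cells (SD, 46 cells), with differences of -2.93, -2.17 and -1.96 in the 3 plates. Ccdc152, whose exons overlap those of Selenop, was 2.31 log2 units lower among cells on, and reads of this pair could be counted for either.

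Homeostatic microglia genes, which mark the resting state, were in part lowered among cells on. Of 25 measured, 22 could be compared in level, of which 4 were lowered (Cst3, Ltc4s, P2ry12 and Selplg), beside 6.25% of all genes compared, and 0 were raised. P2ry12, the ADP receptor that steers microglial processes, was on in 30 of 36 day 4 cells, against 41 of 54 untreated cells, with a level of 8.05 ± 1.34 at day 4 (SD, 30 cells), against 9.49 ± 1.63 in untreated cells (SD, 41 cells). Over 1000 FPKM stood 2 day 4 cells, against 22 untreated cells, and with on at 5 FPKM the level difference of P2ry12 was -0.94, short of the rule. Cst3, a secreted inhibitor of cysteine proteases, was on in all cells of both groups and ran from 1940 to 58416 FPKM with a median of 15681 FPKM at day 4, against 4201 to 124076 FPKM with a median of 34380 FPKM in untreated cells; 79.2% of its values were not whole reads, and centred on the median gene its level difference was -0.94. Ltc4s, an enzyme of leukotriene synthesis, was on in 17 day 4 cells, against 33 untreated cells, and was 1.59 log2 units lower among cells on. Olfml3 and Fcrls, of the same list, were higher in the mean at day 4, by 1.84 and 1.59. The median of the list's mean differences was 0.14, 0.25 and -1.11 in plates 1, 2 and 3. By the mean, 3 of the 25 were lower at day 4 (Crybb1, Cst3 and Ltc4s), and 13 were lower with detected genes as a covariate.

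Immediate-early genes, which respond within minutes to stimuli and to tissue dissociation, were in part lowered among cells on and met the share rule in no case. Of 19 measured, 16 could be compared in level and 4 of these were lowered (Btg2, Klf6, Klf2 and Ier5), beside 6.25% of all genes compared. Btg2, an antiproliferative gene, was on in 29 day 4 cells, against 30 of 54 untreated cells, with a median over cells on of 441 FPKM at day 4, against 1314 FPKM in untreated cells. The Btg2 call depended on the threshold: its level difference was -1.74 log2 units with on at 20 FPKM, -0.73 at 10 FPKM and 0.052 at 5 FPKM. Klf6, a transcription factor, was on in 24 day 4 cells, against 27 untreated cells, with a median over cells on of 115 FPKM at day 4, against 383 FPKM in untreated cells. Fos, the canonical member, was on in 33 of 36 day 4 cells, against 40 of 54 untreated cells, and its level differed by 1.25, -0.54 and -0.58 in the 3 plates. By the mean over all cells, Fos was at least 1 log2 unit higher at day 4 and higher in all 3 plates. It was the 1 list member higher in the mean, and 0 were lower. With detected genes as a covariate, 0 members were higher in the mean and 9 were lower. The list's members differed by plate: the median cell of plate 1 had 14.5 of the 19 on at day 4, against 6 in untreated cells, and that of plate 3 had 10.5 at day 4, against 14 in untreated cells.

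Dhrs3, a reductase of retinaldehyde, was the only gene to meet the rule for fewer cells: it was on in 9 of 36 day 4 cells (25%, exact 95% interval 12.1% to 42.2%), against 31 of 54 untreated cells (57.4%, 43.2% to 70.8%). Its medians were 1.38 FPKM at day 4 and 40.7 FPKM in untreated cells, and the share difference was -27.8, -19.4 and -50.0 points in the 3 plates. The call ended without plate 3 (-23.6 points), with scaling without the 20 top genes (-29.6), and with on at 5 FPKM (-19.4) or 10 FPKM (-26.9). Of the 30 genes lower in the mean, Ypel3 had the largest difference, -2.50 log2 units, and was on in 7 day 4 cells, against 26 untreated cells. Hpgd, which degrades prostaglandins, was on in 14 day 4 cells, against 34 untreated cells, at levels of 8.01 in day 4 cells and 8.80 in untreated cells. Tsc22d3, a gene induced by glucocorticoids, was on in 8 day 4 cells, against 23 untreated cells. The share differences of Ypel3, Hpgd and Tsc22d3, at -28.7, -24.1 and -20.4 points, missed the 30-point rule, and 18 of the 30 met neither the share nor the level rule.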

How the data were processed

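Single cells were sorted into plates and each GEO sample was 1 cell. The authors deposited 1 table of FPKM values per gene and cell; per the submitters' processing notes, reads were trimmed with Trim Galore 0.4.4, cutadapt 1.16 and Trimmomatic 0.36, aligned with STAR 2.7.2b to GRCm38.p6 (mm10) and counted with featureCounts 1.6.1. Assigned reads per cell were recovered from the steps of the deposited FPKM values; a value was whole within 0.01 read, and the median share of whole values was 55.7% in day 4 cells and 61.0% in untreated cells.

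A gene was measured at 1 FPKM or more in at least 10% of all cells, which left 8679 of 55364 rows after 110 repeated symbols. Means used log2(FPKM + 1). The share rule asked for 30 points and 1 sign in 3 plates; the level rule for 10 cells on in each group, a difference of 1 log2 unit, and 1 sign in each plate with 3 cells on in each group, in at least 2 plates. The difference of means equals the sum of the share, level and under-threshold parts. Cells are not replicates, so no test was run. Intervals are exact Clopper-Pearson intervals at 95% and cover counting error only; the limit for 0 cells is 3 cells of the total. Alternatives changed the threshold, pseudocount, filter, scaling, minimum depth, plate set, values under 1% of a column maximum, and detected genes as a covariate.

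Named genes were Tnf, Gpr84 and Il1a, the genes with the largest share or level differences after unnamed, ribosomal and mostly not-whole genes were left out, all genes raised among cells on, and up to 4 members of each list by mean difference; Il1b, Cxcl10, Ypel3, Tmem30a, Klf2, Ier5 and Selplg fell outside that rule and were chosen after their values were seen. Members and lists were chosen with earlier results of these data known. Promoters came from RefSeq. The splitting code was tested on simulated data. Python 3.11.15, numpy 2.4.6, pandas 2.3.3, scipy 1.17.1 and matplotlib 3.10.9 were used.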

Additional observations from a re-analysis of the deposited data

How the results depend on the processing

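No paired analysis was possible because plate numbers pair no single cell of one group with a cell of the other and the results come from no test. Leaving out 1 plate at a time gave 356 to 790 genes on in more day 4 cells, 3 to 8 in fewer, 19 to 29 raised and 26 to 88 lowered among cells on, and 54 to 97 lower in the mean. The share and mean rules then asked for 1 sign in 2 plates, and the level could be compared for 930 to 1296 genes. The gene sets changed more than the counts. Of the 472 genes on in more cells, 412, 276 and 416 stayed without plates 1, 2 and 3. Of the 106 lowered genes, 54, 17 and 43 stayed. The pseudocount moved the genes higher in the mean to 2786 at 0.1 and 452 at 10, and those lower to 71 and 13. With on at 5, 10 or 50 FPKM, genes raised among cells on numbered 116, 41 and 8, and lowered 195, 166 and 44; at 5 and at 10 FPKM 0 genes were on in fewer cells, and at 50 FPKM 276 were on in more and 3 in fewer. A share difference of 20 points gave 1159 and 19 genes on in more and in fewer cells, and 40 points gave 118 and 0. Scaling without the 20 top genes gave 2 genes on in fewer cells, and cells with at least 2 M reads gave 4. Among settings chosen after the data were seen, detected genes as a covariate gave 82 genes on in more and 27 in fewer cells; the planned covariate fit of means gave 512 higher and 266 lower. Levels centred on the median gene, also chosen afterwards, gave 48 raised and 35 lowered. Without the cells with border macrophage markers, all of these counts stayed within 1.5 times, with 415 of the 472 and 71 of the 106 genes kept. The level difference of Btg2 was 0.052 log2 units with on at 5 FPKM and -1.74 with on at 20 FPKM. The cause of these changes was not tested. Single-cell depth of 0.710 to 17.5 M reads per cell limits how far a gene that was off can be told from one not detected.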
